A study of Mus musculus with 8 samples.

Results

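The collagen genes are the protein-coding genes whose symbol is Col, a number, a and a number, such as Col5a1. There were 44 of them among the 21938 protein-coding genes that GENCODE release M21 places on the assembled mouse chromosomes, and the rule uses the symbol and no measured value. Their overlap with H3K56ac (histone H3 acetylated at lysine 56) was read from a merged list of ChIP-seq peaks of muscle stem cells (MuSCs). C57BL/6 mice were the source of these cells, which were used directly after isolation, and the mice were either wild type (Control) or Sirt6mKO, which is Pax7-ICNCre pos Sirt6 fl/fl. In Sirt6mKO mice a constitutively active Cre recombinase driven by the Pax7 promoter deletes the deacetylase gene Sirt6 in the skeletal muscle lineage. For each genotype, 2 H3K56ac libraries and 2 input libraries (chromatin without immunoprecipitation) are labelled, 8 in all. The list carries no value of a single library and does not say which libraries entered it, so genotypes could not be compared. Each value below stands for the merged list without a replicate error. The paper gives read counts for each library, but the depth behind the list is unknown because its libraries are not named. The paper also reports a global increase of H3K56ac peaks in Sirt6mKO MuSCs. Intervals found only in Sirt6mKO cells may therefore be in the list, and the values below need not be those of wild type cells.

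Collagens are triple-helical proteins of the extracellular matrix. Fibrillar collagens build the fibres of connective tissue, type IV collagens form the network of basement membranes, type VI collagens make beaded filaments next to basement membranes, and FACITs (fibril-associated collagens with interrupted triple helices) sit on the surface of fibrils. MuSCs lie between the myofibre membrane and its basement membrane, and collagens of this niche, including types V and VI, are known regulators of MuSC quiescence and self-renewal. H3K56ac is a mark of open, newly assembled or active chromatin, and a peak over a gene is not a measure of its transcription.

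A promoter peak is an interval within 3 kb of any annotated transcription start site (TSS) of the gene. Of the 44 collagen genes, 41 had a promoter peak (93.2%, Wilson 95% interval 81.8% to 97.7%), beside 67.8% of all protein-coding genes. The interval covers counting error only, and genes that share a peak are not independent. Only Col9a1, Col20a1 and Col6a4 lacked a promoter peak. At least 1 TSS lay inside a peak in 34 collagen genes (77.3%), beside 62.1% of coding genes. Collagen genes are long and have many annotated starts, which bears on these counts. Their median length was 114.4 kb against 17.4 kb for all coding genes, and their median number of TSSs was 4 against 3. Among coding genes, the share with a promoter peak rose with the number of TSSs, from 39.7% with 1 TSS to 56% with 2 or 3, 83.4% with 4 or 5, 91.7% with 6 to 8 and 96.4% with 9 or more. In the same classes, 2 of 2, 16 of 17, 9 of 11, 11 of 11 and 3 of 3 collagen genes had a promoter peak. By gene length, the share of coding genes was 59.0% below 25 kb, 78.4% from 25 to 50 kb, 83.9% in both classes from 50 to 200 kb and 78.8% from 200 kb on. The shares from 25 kb on are nearer to that of the collagens than 67.8% is, but the share below 25 kb is not. In the 5 length classes 5 of 5, 9 of 10, 2 of 3, 17 of 18 and 8 of 8 collagen genes had a promoter peak. When only the 5′ end of the gene was used, 36 collagen genes (81.8%) had a peak within 3 kb, beside 64.9% of coding genes. By the start of the principal transcript the count was 37 (84.1%), beside 65.1% of coding genes with such a transcript. In 5 genes (Col9a3, Col7a1, Col25a1, Col6a3 and Col28a1) the promoter peak lay near an internal start and not within 3 kb of the 5′ end, but for Col25a1 that internal start at 49.4 kb is where its principal transcript begins, inside a peak of 1674 bp.

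Most collagen promoter peaks were narrow, whereas a few were among the widest of all genes. The median of the widest promoter peak per gene was 2328 bp in the 41 collagen genes, with quartiles at 1538 and 6395 bp, and 3430 bp in the 14872 coding genes with a promoter peak, with quartiles at 2242 and 4945 bp. At the same time 7 collagen genes (15.9%) reached 10 kb or more by this measure, beside 2.59% of coding genes. These were Col4a1, Col5a1, Col4a2, Col15a1, Col6a1, Col18a1 and Col5a3, at ranks 22, 30, 112, 194, 286, 366 and 485 by width among the 14872 genes. The measure takes the widest interval near any start, and the 2.59% was not matched for gene length or number of starts. The 28440 bp interval of Col4a1 held no start, and the 17233 bp interval of Col4a2 also holds the 5′ end of Col4a1. Over the 5′ end itself, Col18a1 had an interval of 2239 bp and Col5a3 one of 2230 bp. The narrowest was the 538 bp peak of Col6a5.

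**Figure D1:**
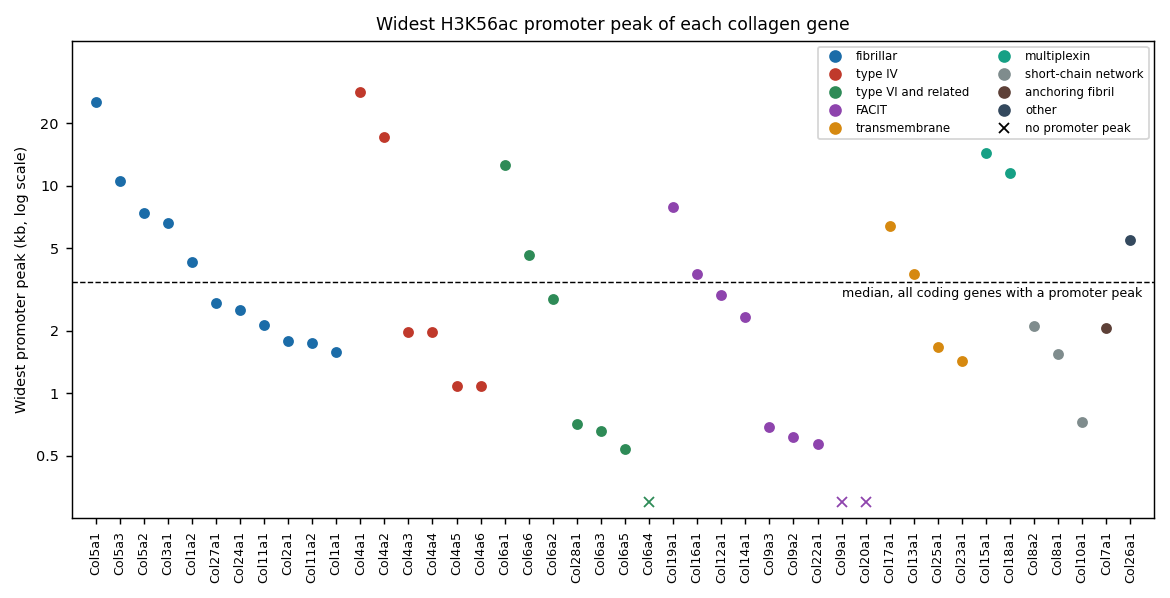
Widest H3K56ac promoter peak of each of the 44 collagen genes (vertical axis, kb, log scale), 1 point per gene, coloured by collagen class and ordered by width within a class. Crosses mark Col6a4, Col9a1 and Col20a1, which had no promoter peak. The dashed line is the median of the coding genes with a promoter peak (3.43 kb), and 7 collagen genes lie above 10 kb while 25 lie below the line.

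The DNA around the starts also differed among the collagens. RefSeq windows of 300 bases (250 before to 50 after the RefSeq start, GRCm38.p6) were matched for 35 of the 44 genes. Not matched were Col9a3, Col12a1, Col14a1, Col22a1, Col1a1, Col2a1, Col5a2, Col26a1 and Col4a3. The median number of CpG dinucleotides per window was 12 in the collagens and 14 in 16539 coding genes. The 26 windows whose start lay inside a peak held a median of 15 CpGs, with a range of 0 to 37. The 6 windows whose start was over 3 kb from a peak held a median of 2, with a range of 0 to 12. This is a description of 6 windows, and coding promoters of all kinds differ in the same property. The next lines show upstream bases of 3 genes that differ in CpG content and of 1 gene with no promoter peak. Those 3 genes had a promoter peak above the upper quartile of coding genes (4945 bp). Each run ends just before the RefSeq start, except Col6a1, where the run stops before the GENCODE start and leaves out 124 bases. Bases were read from RefSeq, GRCm38.p6, 5′ to 3′ on the strand of the gene. Capitals mark the TATA box TATAAA, the CCAAT box, the GC box GGGCGG or the AP-1 motif TGANTCA, each searched on both strands, so that a GC box can read CCGCCC. The regions are chr2:27886175-27886424 (plus strand) for Col5a1, chr1:45311288-45311537 (plus) for Col3a1, chr10:76726169-76726294 (minus) for Col6a1 and chr1:24177360-24177609 (plus) for Col9a1. None of the printed bases lies in an annotated exon.
Col5a1: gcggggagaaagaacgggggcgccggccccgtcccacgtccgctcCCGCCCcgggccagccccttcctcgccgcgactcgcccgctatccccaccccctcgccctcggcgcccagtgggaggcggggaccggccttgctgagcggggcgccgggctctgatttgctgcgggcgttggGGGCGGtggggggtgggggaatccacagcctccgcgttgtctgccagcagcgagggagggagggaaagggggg
Col3a1: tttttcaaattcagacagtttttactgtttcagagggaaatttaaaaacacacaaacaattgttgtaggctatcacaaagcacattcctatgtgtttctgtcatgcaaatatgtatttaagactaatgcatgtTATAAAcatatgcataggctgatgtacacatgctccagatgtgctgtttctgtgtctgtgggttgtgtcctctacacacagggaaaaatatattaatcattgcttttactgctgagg
Col6a1: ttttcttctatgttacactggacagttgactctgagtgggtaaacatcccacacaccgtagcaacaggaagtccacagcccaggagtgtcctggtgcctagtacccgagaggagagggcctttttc
Col9a1: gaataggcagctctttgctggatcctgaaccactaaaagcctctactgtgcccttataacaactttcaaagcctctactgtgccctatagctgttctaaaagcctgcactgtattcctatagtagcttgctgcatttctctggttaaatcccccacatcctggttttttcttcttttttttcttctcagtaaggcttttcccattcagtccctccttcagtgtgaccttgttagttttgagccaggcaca

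All 250 printed bases of Col5a1 lay inside its 25363 bp peak, and they held 28 CpGs and 2 GGGCGG motifs. The 250 bases of Col3a1 lay inside a peak of 6627 bp and held 0 CpGs and 1 TATAAA. The 126 bases of Col6a1 lay inside a peak of 12559 bp and held 2 CpGs and none of the 4 motifs. The 250 bases of Col9a1 held 0 CpGs, and the nearest peak was 69005 bp from its start. Hence a CpG-poor start was seen with a peak of 12559 bp (Col6a1), with one of 6627 bp (Col3a1) and with none (Col9a1). Over the whole windows, Col4a1 and Col4a2 held 37 and 33 CpGs, Col5a1 34, Col5a3 20, Col18a1 16, Col15a1 8 and Col6a1 3. The GC box was in 62.9% of the 35 collagen windows and 48.0% of coding windows. The TATA box was in 14.3% and 12.9%, the CCAAT box in 34.3% and 38.7%, the E-box CANNTG in 54.3% and 68.5%, the Notch effector motif TGGGAA in 31.4% and 24.2%, and the AP-1 motif in 2.86% and 7.10%. The 1 collagen window with an AP-1 motif was that of Col6a1, in the bases left out above. The TATA box was found in Col3a1, Col11a2, Col10a1, Col13a1 and Col17a1. Matches of different motifs may overlap, and a match is a match of letters and not a measured binding site.

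The covered share is the part of a gene, from its start to its end, that lies inside peaks. Its median was 8.44% in the collagens (quartiles 2.02% and 19.0%, range 0 to 65.0%) and 7.82% in all coding genes, and 11 collagen genes (25%) had at least 20% of their length covered, beside 28.9% of coding genes. This share is near the background. Because the covered share of coding genes falls with length, collagens were also set beside genes of their own length. Below 25 kb the median of coding genes was 9.14%, and it was 8.15% from 25 to 50 kb, 6.97% from 50 to 100 kb, 6.34% for lengths from 100 to 200 kb and 2.92% from 200 kb on. Above the median of their class were 2 of 5, 7 of 10, 2 of 3, 12 of 18 and 2 of 8 collagen genes, or 25 of 44 in all. By collagen class these were 8 of 11 fibrillar, 3 of 6 type IV, 4 of 7 type VI and related, 3 of 9 FACIT, 3 of 4 transmembrane, 2 of 2 multiplexin and 1 of 3 short-chain genes, with Col26a1 above and Col7a1 below. The collagens ran from 0 to 65.0%, with Col4a2 at 65.0%, Col4a1 at 59.1%, Col6a1 at 52.5%, Col15a1 at 43.2% and Col5a3 at 40.5% at the top and Col9a1, Col20a1, Col10a1, Col4a6 and Col6a4 at 0.

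**Figure D2:**
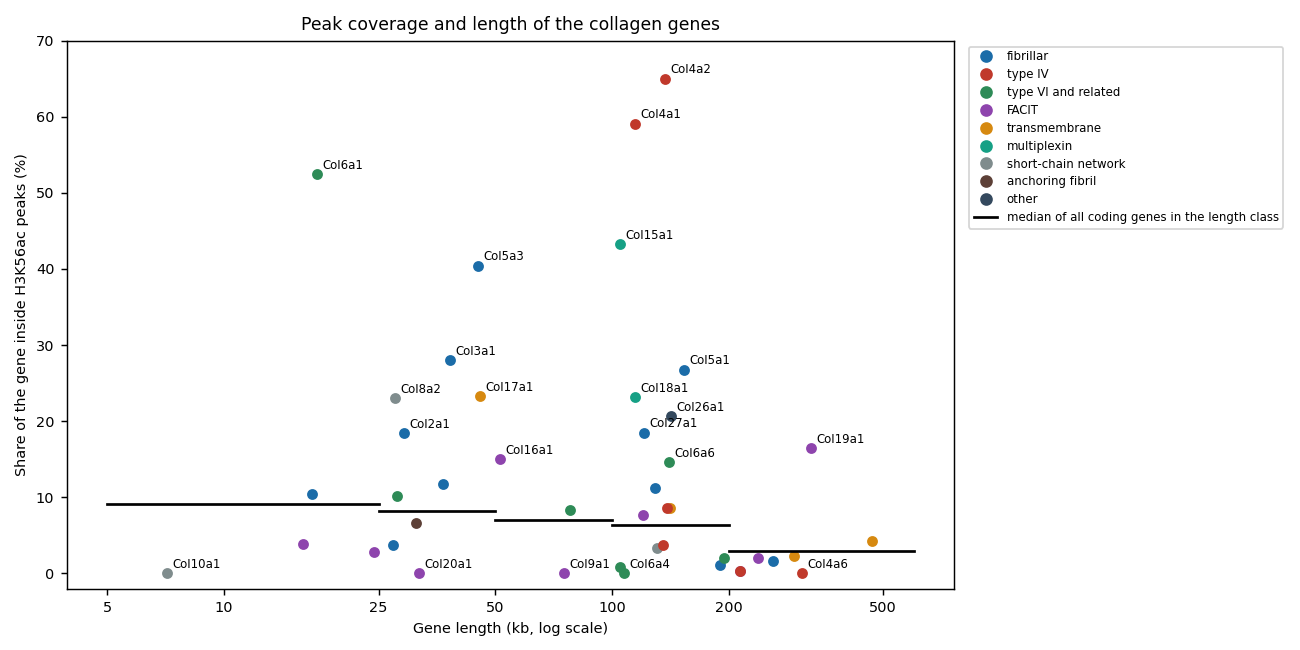
Share of each collagen gene inside H3K56ac peaks (vertical axis, %) against gene length (horizontal axis, kb, log scale), 1 point per gene, coloured by class, with names at 14% or more and at 0. Black lines are medians of all coding genes in 5 length classes. Col4a2 and Col4a1 are at 65.0% and 59.1% in the class of 100 to 200 kb, whose median is 6.34%.

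The 11 fibrillar collagens all had a promoter peak, beside 67.8% of all coding genes. Their median widest peak was 2728 bp and their median covered share 11.7%. The major fibre-forming chains of connective tissue were covered to a moderate extent. Col1a1 (chr11:94936224-94953042, plus strand) carried 2 promoter peaks, of 1576 and 535 bp, together with 10.5% of the gene covered. Col1a2 (chr6:4504814-4541544, plus) had a single peak of 4309 bp and 11.7% covered. Col3a1 (chr1:45311538-45349706, plus), whose chain forms type III fibrils together with type I collagen in elastic tissues, had a wider promoter peak of 6627 bp and 28.0% covered in 5 peaks. These 3 genes encode the bulk of interstitial collagen, and none of them had a promoter peak of 10 kb.

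Wider peaks lay over the 3 type V genes, whose chains start the growth of type I fibrils and limit their diameter. In Col5a1 (chr2:27886425-28039514, plus) the promoter peak of 25363 bp (chr2:27881055-27906417) reached from 5370 bp before the 5′ end to 19992 bp after it. A further peak of 15313 bp followed within the gene, and the 9 peaks together covered 26.7% of its length. No peak lay beyond 55.6 kb from the 5′ end of this 153.1 kb gene. The widest promoter peak of Col5a3 (chr9:20770050-20815067, minus) was 10531 bp, but it began 1898 bp inside the gene, and the peak over the start itself was 2230 bp. The 2 intervals were 60 bp apart, and the gene was covered to 40.5%. Col5a2 (chr1:45374321-45503282, minus) had a peak of 7420 bp over its 5′ end and 14 smaller peaks, of at most 1955 bp, along the gene, with 11.2% covered. Therefore all 3 type V genes had a promoter peak above the upper quartile of coding genes.

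Col2a1, Col11a1 and Col11a2 encode the fibrils of cartilage. Their widest promoter peaks were 1781, 2131 and 1747 bp, and their covered shares were 18.4%, 1.12% and 3.69%. The late-described fibrillar genes Col24a1 and Col27a1, known from developing bone and cartilage, had widest promoter peaks of 2512 and 2728 bp. Their covered shares differed, at 1.65% and 18.5%, and Col27a1 held 16 peaks and Col24a1 4.

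The 6 type IV genes are arranged as 3 head-to-head pairs, and each pair shared a promoter peak. The pairs differed from each other in the width of that peak. Col4a1 (chr8:11198423-11312826, minus) and Col4a2 (chr8:11312805-11449287, plus), which encode the chains found in nearly all basement membranes, start 21 bp apart inside a peak of 17233 bp (chr8:11301856-11319088). Col4a3 (chr1:82586921-82722059, plus) and Col4a4 (chr1:82448423-82586849, minus), whose chains belong to the basement membranes of the kidney glomerulus and a few other organs, start 72 bp apart inside a peak of 1983 bp (chr1:82585725-82587707). Col4a5 (chrX:141475385-141689234, plus) and Col4a6 (chrX:141165403-141474076, minus) start 1309 bp apart, and the peak between them was 1083 bp (chrX:141475012-141476094). This last peak held the 5′ end of Col4a5 and lay 936 bp from that of Col4a6.

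Along the genes the same order was seen. Col4a2 held 30 peaks that covered 88.7 kb, or 65.0% of the gene, and Col4a1 held 8 peaks that covered 67.6 kb, or 59.1%. The covered shares were 3.73% for Col4a3, 8.52% for Col4a4, 0.332% for Col4a5 and 0 for Col4a6. The widest interval near a Col4a1 start was 28440 bp (chr8:11248645-11277084), but it held no TSS. It lay 35.7 to 64.2 kb into the gene and counted as a promoter peak because an internal transcript starts within 3 kb of its edge. Between it and the shared promoter lay intervals of 19496, 4416 and 566 bp, with gaps of 18 to 144 bp. When intervals less than 1 kb apart were joined, they became a single stretch of 100.3 kb (chr8:11243772-11344032) over the 5′ parts of both genes. The 3′ part of Col4a1, beyond 69.1 kb from its 5′ end, held no peak.

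**Figure D3:**
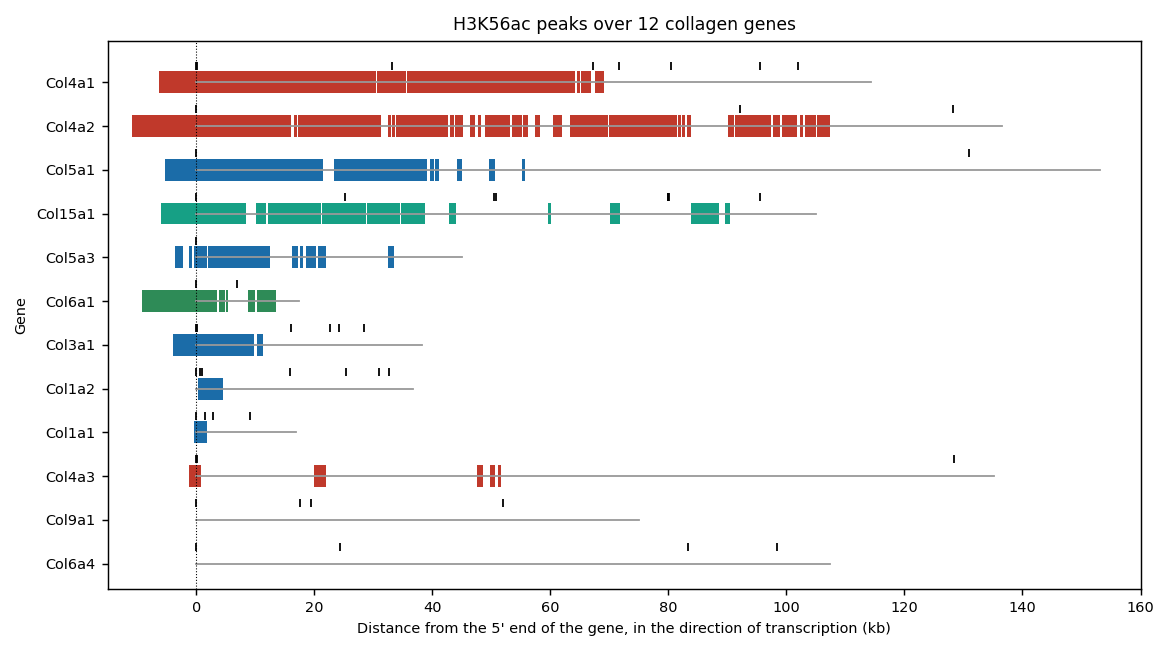
H3K56ac peaks (bars, coloured by collagen class) over 12 collagen genes drawn to scale from the 5′ end at 0 in the direction of transcription (horizontal axis, kb). Grey lines are the genes and black ticks their annotated TSSs. Bars fill most of the 5′ part of Col4a1 and Col4a2, reach 55.6 kb into Col5a1, and are absent from Col9a1 and Col6a4. Col4a1 and Col4a2 lie head to head, so the bar left of 0 in each is part of the other gene.

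Among the type VI genes and the related Col28a1, 6 of 7 had a promoter peak (85.7%), beside 67.8% of all coding genes. By the 5′ end or the principal start the count was 4 of 7, beside 64.9% and 65.1% of coding genes. The chains α1, α2 and α3 assemble into the main type VI filament of muscle, and their genes differed. Col6a1 (chr10:76708792-76726168, minus) had a promoter peak of 12559 bp (chr10:76722762-76735320), of which 9152 bp lay before its 5′ end, and 52.5% of this 17.4 kb gene was covered. Col6a2 (chr10:76595762-76623630, minus), the neighbour on the same strand, had a peak of 2836 bp and 10.2% covered. Between the genes lay 85161 bp with 19 peaks and 45.8% covered. Col6a3 (chr1:90765923-90843971, minus) had no peak within 3 kb of its 5′ end. Its nearest interval, of 4560 bp, began 3279 bp inside the gene, just past the limit, and the 657 bp peak that counted lay at an internal start 70.8 kb from the 5′ end. The covered share was 8.36%.

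The genes of the other type VI chains, Col6a4, Col6a5 and Col6a6, lie in a row on chromosome 9 on the minus strand. Col6a6 (chr9:105687809-105828160) had a promoter peak of 4652 bp, and its 14 peaks covered 14.6%. Col6a5 (chr9:105856078-105960643) had a peak of 538 bp and 0.849% covered by 2 peaks. Col6a4 (chr9:105989454-106096783) held no peak at all. The 27917 bp between Col6a6 and Col6a5 were covered to 70.3% by 12 peaks, while the 28810 bp between Col6a5 and Col6a4 were covered to 3.86%. Col28a1, which encodes a chain with similar domains found mainly in nerve, had a peak of 714 bp only near an internal start and 1.99% covered.

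The 2 multiplexin genes, whose products are basement membrane collagens (the fragment endostatin comes from collagen XVIII), both had a promoter peak above 10 kb. Col15a1 (chr4:47208161-47313167, plus), a gene of the muscle basement membrane zone, had a peak of 14382 bp (chr4:47202162-47216543) over its 5′ end. It was followed by intervals of 9049, 7585, 5625 and 4038 bp, and 12 peaks covered 43.2%. Col18a1 (chr10:77052178-77166548, minus) had a narrower peak of 2239 bp over its 5′ end, one of 7770 bp over a pair of starts near 52.6 kb, and its widest of 11562 bp over a start at 77.1 kb. A further start at 106.6 kb lay 2740 bp from a peak, and 23.1% of the gene was covered.

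FACIT genes had the lowest median covered share of the classes with more than 3 genes, at 2.81%. A promoter peak was found in 7 of 9 (77.8%), beside 67.8% of all coding genes. By the 5′ end alone it was 6 of 9, beside 64.9%. Col9a1 (chr1:24177610-24252684, plus) and Col20a1 (chr2:180986535-181018363, plus) had no peak in the gene or within 3 kb of a start. Col9a2 and Col9a3, which encode the other chains of cartilage type IX, had peaks of 617 and 686 bp, and that of Col9a3 lay 4457 bp from the 5′ end. Col22a1, whose chain sits at the muscle-tendon junction, had a peak of 571 bp and 2.03% covered. Col12a1 and Col14a1, which bind type I fibrils in tendon and muscle connective tissue, had peaks of 2975 and 2328 bp and 7.61% and 0.360% covered. Col16a1 was covered to 14.98%, its peak over the 5′ end was 1781 bp, and its widest, of 3756 bp, lay upstream of that end. Col19a1, known from developing muscle and from synapses, had the widest promoter peak of the 9 FACIT genes, of 7860 bp over its start, and 21 peaks that covered 53.4 kb, or 16.4% of a gene of 325.6 kb. Col9a1 and Col19a1 lie tail to tail on chromosome 1 with 9205 bp between them, and no peak lay in that stretch.

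The 4 transmembrane collagens all had a promoter peak, beside 67.8% of all coding genes, and by the 5′ end alone 3 had one. Col13a1, a component of the neuromuscular junction, had 7 promoter peaks, of which the widest was 3748 bp at an internal start, and the peak of 1128 bp at its 5′ end missed the outermost start by 43 bp. Col17a1, the hemidesmosome collagen of skin, had a peak of 921 bp over its start and 23.3% covered, mostly by a 6395 bp peak that began 22.9 kb into the gene. Col23a1 and Col25a1 had peaks of 1427 and 1674 bp and 2.34% and 4.22% covered. Col25a1, whose chain is needed for motor innervation of muscle, held 17 peaks over 468.4 kb.

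Of the short-chain network genes, Col8a1 and Col8a2, which encode a collagen of blood vessels and the cornea, had widest promoter peaks of 1538 and 2114 bp and covered shares of 3.27% and 23.0%. Col10a1, the collagen of hypertrophic cartilage, had a peak of 724 bp that lay 884 bp before its start, and none in the gene. Col7a1, which forms the anchoring fibrils of skin, had its only peak 9332 bp from the 5′ end, with 6.56% covered. Col26a1 had a promoter peak of 5455 bp and 20.6% covered in 15 peaks.

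Groups by tissue were formed after the values were seen, so they are a description and no test was made. Of the 7 genes of the cartilage collagens II, IX, X and XI, 6 had a promoter peak (85.7%), beside 67.8% of all coding genes. Their widest per gene ranged from 617 to 2131 bp. The range was 1576 to 6627 bp in the 3 genes of collagens I and III, 7420 to 25363 bp in the 3 type V genes, 538 to 12559 bp in the 5 of 6 type VI genes with a promoter peak, and 2052 to 6395 bp in Col7a1 and Col17a1. For Col5a3 the peak of 10531 bp began inside the gene. The peak over its start was 2230 bp, near the upper end of 2131 bp in the cartilage genes. Both peaks of Col7a1 and Col17a1 in that range also began inside the gene, at 9332 bp and 22945 bp from the 5′ end. The peak over the start of Col17a1 was 921 bp, within the range of the cartilage genes. Covered shares were 0 to 18.4% (median 2.81%) in the cartilage genes and 11.2% to 40.5% (median 26.7%) in the type V genes.

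In position, peaks gathered towards the 5′ end of the collagen genes. A total of 289 distinct peaks touched the genes or their promoter windows. Median widths were 1557 bp for the 94 promoter peaks and 859 bp for the 195 others, and 12 of the 289 were at least 10 kb wide. When each gene was cut into 4 equal parts from its 5′ to its 3′ end, the mean covered shares were 28.5%, 11.8%, 10.5% and 4.11% in the collagens and 32.9%, 15.9%, 10.7% and 9.02% in coding genes. The 5′ part was the most covered in 26 of the 44 collagens (59.1%), beside 52.3% of coding genes. In 7 collagens (15.9%) the 3′ part was more covered than the 5′ part, beside 9.75% of coding genes. These means and shares keep genes without a covered base, which can have no most covered part. Such genes were 5 of the 44 collagens but 6787 of all 21938 coding genes, so the 2 sides are not alike. The shares were not computed among covered genes alone, so they do not set the collagens apart. Intron 1 of the principal transcript had a median covered share of 30.0%, was covered by more than 50% in 16 genes and by nothing in 9. The exons had a median of 7.47%. These intron and exon values were not computed for other coding genes, so they do not set the collagens apart.

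Around the 5′ end, the mean covered share of the collagens was above that of coding genes in 91 of 100 bins of 1 kb. Bins run on past the end of short genes, and 35.4% of coding genes but only 1 collagen gene were shorter than 10 kb, so the downstream values of coding genes include sequence beyond the gene. From the 5′ end to 3 kb downstream it was 49.4% against 41.9%, from 3 to 10 kb downstream 26.9% against 14.2%, and from 10 to 3 kb upstream 21.9% against 10.3%. Further upstream, from 50 to 10 kb, it was 18.5% against 10.6%. A few genes carried the upstream values. In the 50 kb before the 5′ end, the covered share was over 50% in 6 collagen genes, namely Col4a2 (99.4%), Col4a1 (90.5%), Col15a1 (85.1%), Col5a1 (84.4%), Col8a2 (58.1%) and Col6a2 (54.6%), while 2.35% of coding genes passed that level. For Col4a1 and Col4a2 this stretch is the partner gene, and without this pair the mean over the 50 kb fell from 20.04% to 16.5%, beside 11.9% in coding genes. The medians were 11.1% and 7.11%. No other coding gene overlapped the upstream stretches of Col15a1, Col5a1 and Col6a2, whereas that of Col8a2 held Map7d1 and Trappc3. In 5 genes (Col9a1, Col22a1, Col27a1, Col6a3 and Col6a4) it held no peak.

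**Figure D4:**
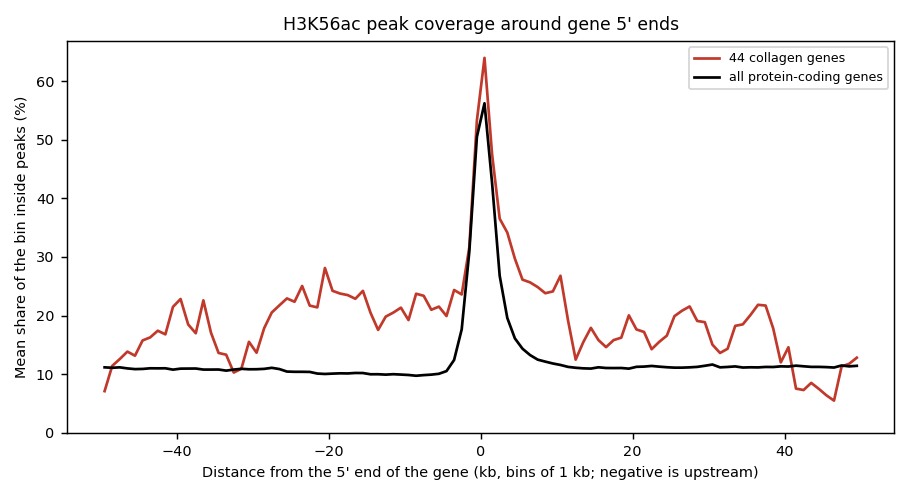
Mean share of 1 kb bins inside H3K56ac peaks (vertical axis, %) from 50 kb upstream to 50 kb downstream of the 5′ end of the gene (horizontal axis, kb), for the 44 collagen genes (red) and all protein-coding genes (black). The red line is higher over most bins, with 26.9% against 14.2% from 3 to 10 kb downstream, where the bins of short genes lie past their end, and is uneven because few genes enter it.

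Genes that act on collagens had higher median covered shares than the collagens, and were shorter (median length 28.7 kb for biosynthesis genes, 59.8 kb for receptor genes and 19.8 kb for proteoglycan genes). No test of this difference was made. Their promoter peak counts, and those of the marker lists, stand beside the 67.8% of all coding genes. Of 31 genes of collagen biosynthesis (hydroxylases, chaperones, procollagen proteases and crosslinking enzymes), 29 (93.6%) had a promoter peak, and the median covered share was 16.1%. Loxl1, a crosslinking enzyme, was covered to 84.2%. The prolyl hydroxylase subunit gene P4ha2 reached 60.4%, Serpinh1, the collagen chaperone, 53.5%, and Sparc, a collagen-binding matricellular protein, 51.5%. Tll2 and Loxl2 had no promoter peak. Of 11 collagen receptor genes, 8 (72.7%, near that share) had a promoter peak and the median covered share was 18.2%. Calcr, which is also a receptor for collagen V in MuSCs, had a promoter peak of 25343 bp and 43.8% covered, Ddr1 had 37.9%, Itgb1 33.6%, Mrc2 33.0% and Ddr2 29.5%. Itga10, Gp6 and Lair1 had no promoter peak, and the platelet and leukocyte receptor genes Gp6 and Lair1 held no peak at all. Of 12 proteoglycan and fibril-associated genes, 9 (75%, likewise near it) had a promoter peak, with a median covered share of 22.3% and 90.9% at Prelp, 50.5% at Ogn and 22.2% at Dcn. Fmod, Kera and Epyc had no promoter peak, and their covered shares were 8.64%, 0 and 4.91%, while Fn1 was at 2.03%.

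Markers of the sorted cells and of other cells were read in the same way. All 10 MuSC markers had a promoter peak, with a median widest peak of 12834 bp and a median covered share of 68.2% (range 30.2% to 100%), and the defining genes Pax7 and Myf5 of the labelled cell type were covered to 86.7% and 100%. Of 10 fibro-adipogenic markers, 8 had a promoter peak and the median covered share was 15.4%, with Dpt at 94.99%, Clec3b at 94.9% and Pdgfra at 11.2%, and with Ly6a, whose product Sca1 was used to remove cells in the sort, and Smoc2 at 0. Promoter peaks were found for 2 of 6 tendon markers (median covered share 4.32%, Tnmd at 0 and Scx at 100%), 5 of 6 mural markers (25.8%) and 3 of 6 endothelial markers (0.704%). Of the endothelial markers Cdh5, Emcn and Tie1 were at 0, Kdr was at 1.41%, and Tek was at 25.04% with a promoter peak of 12975 bp. Pecam1, whose product CD31 was also used to remove cells in the sort, held 14 peaks that covered 27.5%. Promoter peaks were also found for 2 of 6 immune markers (median 0), namely Cd68 at 31.9% and Cd79a at 24.2% covered, with Ptprc (CD45, likewise used in the sort), Adgre1, Lyz2 and Cd3e at 0. The counts were 3 of 4 Schwann markers (15.6%), 6 of 6 myofibre markers (13.4%), 4 of 6 cartilage markers (2.40%) and 2 of 5 epidermis markers (median 0). Of the latter, Trp63 held 42 peaks that covered 46.8% and Krt1 was at 16.9%, while Krt5, Krt14 and Dsg3 were at 0. Fibroblasts and mural cells are rich sources of collagens, and the part of such cells in the collagen peaks was not tested, since the list holds no values per cell or library. When the sorted cells were analysed again, the purity that the paper reports left a sizeable minority of other cells.

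**Figure D5:**
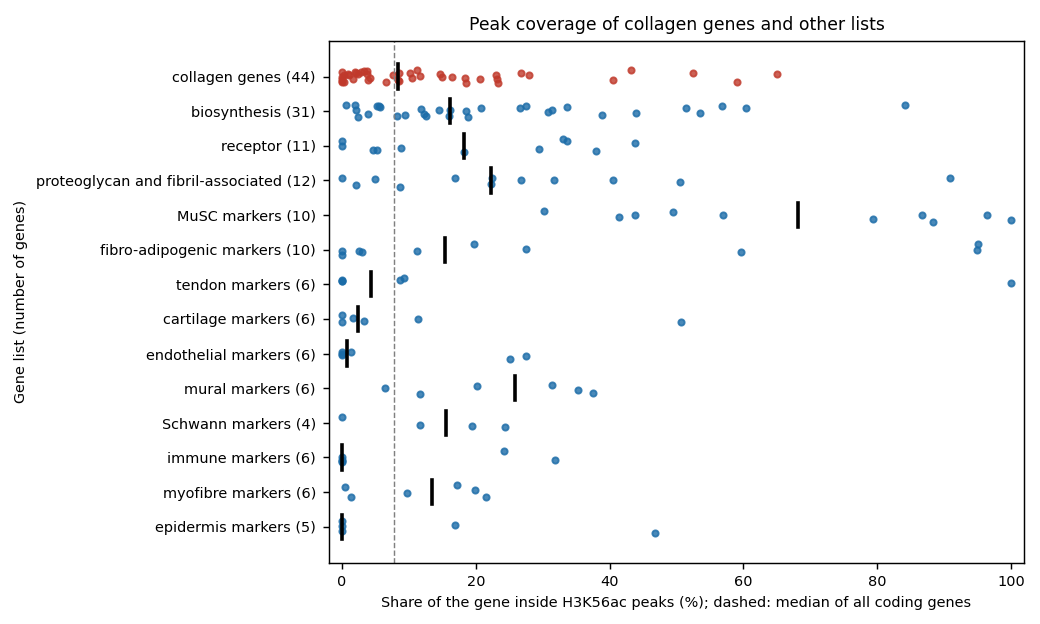
Share of each gene inside H3K56ac peaks (horizontal axis, %), 1 point per gene, for the collagen genes (red) and 13 other lists (blue), with the number of genes in brackets. Black bars are medians and the dashed line is the median of all coding genes (7.82%). Collagens have a median of 8.44%, and MuSC markers one of 68.2%.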

How the data were processed

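H3K56ac ChIP and input libraries were prepared from freshly isolated MuSCs. According to the methods of the study, the authors trimmed reads with Trim Galore, aligned them to mm10 (bowtie, uniquely aligned reads only), discarded Picard duplicates, called peaks with MACS2, removed blacklisted regions and merged overlapping peaks with GenomicRanges. The notes of the submitters also name FastQC, SAMtools and deepTools. The deposited list gives the chromosome, start and end of 105600 intervals, and its score column was 0 in every row. Merging adds, widens and fuses intervals, so widths describe a union, and reads in repeats with several alignments were lost.

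Positions were counted from 1 on GRCm38, and 0 intervals ran past a chromosome end. Genes came from GENCODE M21. Overlaps were computed in Python 3.11.15 with numpy 2.4.6 and scipy 1.17.1, and were tested on simulated intervals. Classes followed the textbook division of collagens. The choice of collagens as the subject, and of the lists, was made with earlier results of these data known, although membership follows from the symbol. All 44 members are named. Full values are given for the 5 genes with the widest promoter peak, the 5 with the highest covered share, those without a promoter peak, paired genes and the genes of collagens V, VI and XV, and the other lists are given by counts with examples chosen after their values were seen. Since no value belonged to a sample, there was no test, and shares of genes are set beside those of all coding genes. Promoter windows came from RefSeq, and a group of genes by tissue was added after the values were seen.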

Additional observations from a re-analysis of the deposited data

How the results depend on the processing

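Promoter windows of 1 kb, the 5′ end of the gene only, protein-coding transcripts alone, a width limit of 500 bp and the joining of intervals less than 1 kb apart were tried, and the start of the principal transcript was added after seeing the data. Covered shares were recomputed with 3 kb added on either side, without the parts within 3 kb of a start, and with both changes of the intervals. Over 13 results and 66 recomputed values, none changed by more than 1.5 times for a count or left the 95% interval of its median. The number of collagens with a promoter peak ranged from 36 to 41, and the share of coding genes from 64.9% to 67.8%. The median widest promoter peak ranged from 2230 to 2875 bp, and the median covered share from 4.29% to 9.18%. The 4.29% left out the parts within 3 kb of a start, beside 8.44% as reported. For type VI and related genes, the promoter peak count fell from 6 to 4 by the 5′ end or the principal start. The limits of change are wide, and the intervals treat genes as independent, so staying within them does not show that the results are stable. Classes of few genes have wide intervals, so these say little about them. No paired analysis was possible because the deposited intervals have no values by sample, and no library could be left out. Depth limits the list in an unknown way, so a gene with no peak, such as Col9a1, may hold H3K56ac that was not detected.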
